A study of Mus musculus with 12 samples.

Results

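E14 2 is a wild-type culture of mouse embryonic stem cells (ESCs), pluripotent cells derived from the early embryo. Its 2 small RNA libraries, 2A and 2B, were compared with 4 libraries (1A, 1B, 3A, 3B) of the 2 other wild-type cultures in a series of 12 small RNA libraries. The rule for members used the library titles and no measured value: all features of the count table were read in the 2 libraries titled E14 2, and the 4 libraries titled WT served as the comparison. All 6 carry the genotype label Wildtype and the strain label E14, and no treatment or time is given. The remaining 6 libraries are 2 labelled Dnmt1 -/- (called Dnmt1 KO) and 4 labelled Dicer/Dnmt1 -/-, all in the same strain label. Dnmt1 encodes the enzyme that copies DNA methylation when DNA replicates, and Dicer cuts miRNA precursors. The Dnmt1 KO pair is taken as 1 culture from its titles. It is used below for its levels and as a group in fits of 4 cultures. The study deleted Dnmt1 conditionally with Cre in its time courses, but the labels say neither whether this culture came from that line nor when it was sampled. The labels do not say whether A and B of a culture were grown apart, so p-values measure only the spread between these libraries. The labels allow a range of RNA inputs and more than 1 sequencer without naming them per library, and a difference of culture in E14 2 cannot be told apart from one of library preparation.

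miRNAs are RNAs of about the length sequenced here that guide Argonaute proteins to messenger RNAs, mainly through pairing of their seed, bases 2 to 8. In ESCs, the Mir290 to Mir295 cluster is the best known abundant group, and the Mir17-92 cluster and its relatives are also expressed. Small nucleolar RNAs (snoRNAs) guide the chemical modification of ribosomal RNA, and small nuclear RNAs (snRNAs) form the core of the spliceosome. Both are longer than the 20 to 24 nt reads kept by the authors, so reads in them are fragments.

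Depth was low and unequal. E14 2A held 16142 library reads and E14 2B held 140205, against 72163 to 245184 in the 4 WT libraries. In RPM, the reads of a feature scaled to a common library size, 1 read was worth 62.0 RPM in E14 2A and 7.13 RPM in E14 2B, and a count of 0 allowed up to 3 reads, which is 186 RPM in E14 2A and 21.4 RPM in E14 2B. These limits, and the intervals given below, cover counting error only. Of 32101 features, 461 passed the filter of a mean of at least 100 RPM and at least 15 reads over the 6 libraries.

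The miRNAs on which the results turn have the following mature sequences (RefSeq, GRCm38.p6), written 5′ to 3′ with the seed in capitals. The table counts whole hairpins, so it does not say which arm the reads came from. The first 3 are the members of 1 cluster on chromosome 6, and each has a seed of its own.
miR-183-5p: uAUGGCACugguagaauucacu
miR-182-5p: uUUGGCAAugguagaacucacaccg
miR-96-5p: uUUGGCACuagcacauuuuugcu

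Among the other large rises, miR-192-5p and miR-10b-5p are shown because each comes from 1 named hairpin, and miR-92b-3p because it shares its seed with the abundant miR-92a-3p. The 2 miR-191 arms are shown because they lie in the interval of an unnamed feature described below.
miR-192-5p: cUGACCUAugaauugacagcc
miR-10b-5p: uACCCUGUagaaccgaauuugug
miR-92b-3p: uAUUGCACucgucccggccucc
miR-92a-3p: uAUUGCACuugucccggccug
miR-191-5p: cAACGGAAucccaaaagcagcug
miR-191-3p: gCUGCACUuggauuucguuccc

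The Mir290 to Mir295 cluster is shown because its members did not keep their proportions. The 5p arms of Mir291a and Mir291b share a seed, while their 3p arms do not. The 3p arms of Mir291a, Mir294 and Mir295 share one.
miR-291a-5p: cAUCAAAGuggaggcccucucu
miR-291b-5p: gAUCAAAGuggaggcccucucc
miR-291a-3p: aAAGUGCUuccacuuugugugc
miR-291b-3p: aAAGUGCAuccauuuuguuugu
miR-294-3p: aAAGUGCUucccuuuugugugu
miR-295-3p: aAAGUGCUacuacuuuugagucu

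In E14 2 a larger share of counts fell in miRNAs, and a smaller share in fragments of snoRNAs, than in the other wild-type cultures. miRNAs took 65.8% of the counts in E14 2A (95% Wilson interval 65.1 to 66.5) and 45.3% in E14 2B (45.1 to 45.6), against 34.0% in WT 1A, 30.7% in 1B, 29.5% in 3A and 30.2% in 3B. Both E14 2 libraries lay above all 4 others, and they also lay far apart from each other. The difference of the means was 24.4 percentage points. It lay in the chromosome 6 cluster of Mir183, Mir182 and Mir96, described below. That cluster held 64.1% and 37.5% of the miRNA counts in E14 2A and 2B, against 10.3% to 17.5% in WT. As shares of library reads, the difference was 25.1 points for all miRNAs and 26.7 points for this cluster alone. The other miRNAs together therefore had no larger mean share in E14 2 than in WT. snoRNA features took 6.14% in E14 2A and 7.80% in E14 2B, against 15.8%, 20.01%, 18.6% and 18.95% in WT 1A, 1B, 3A and 3B. Here both E14 2 libraries were below all 4 others, and the means differed by -11.4 points. snRNA features took 0.0411% and 0.107% in E14 2A and 2B against 0.412% to 0.681% in WT, and features of ribosomal RNA took 0.0880% and 0.180% against 0.444% to 0.914%. With 2 against 4 libraries, the exact two-sided permutation test cannot give a p below 0.133, and it gave that value for each of these 4 classes (0.275 after Benjamini-Hochberg adjustment over the 35 shares tested).

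**Figure D1:**
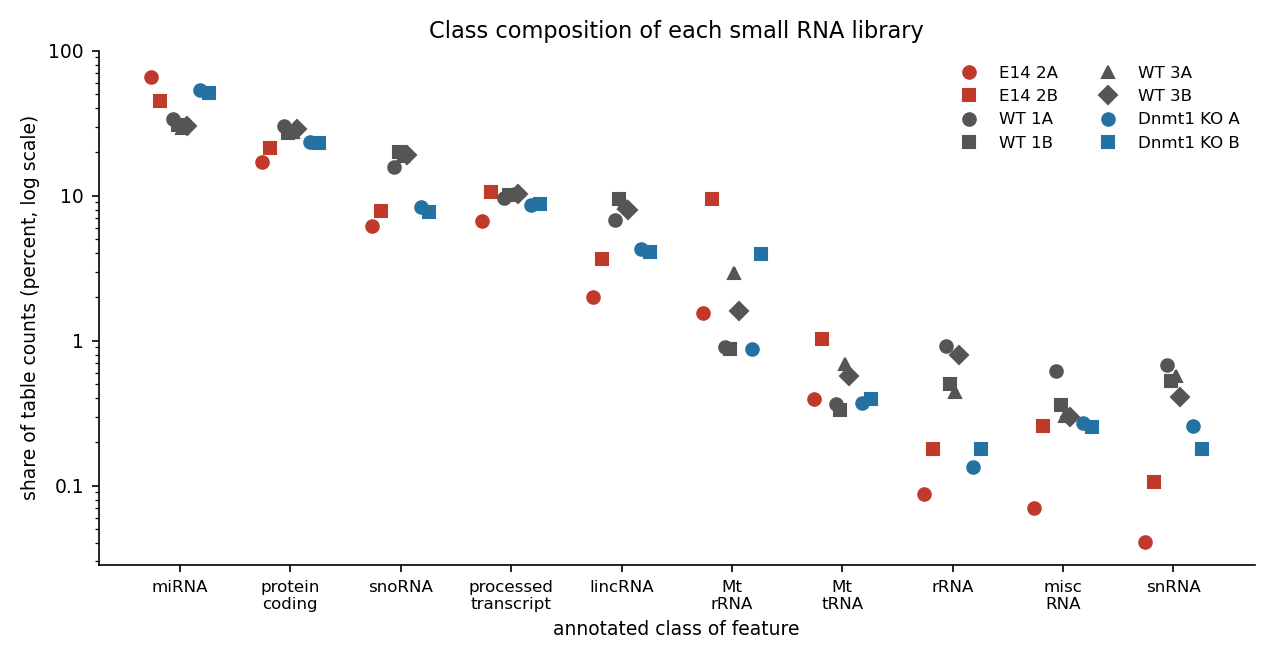
Share of table counts (percent, log axis) taken by each annotated class of feature, with 1 point per library for E14 2 (red), WT (grey) and Dnmt1 KO (blue). In miRNA, the E14 2 points lie at 65.8% and 45.3% and the WT points between 29.5% and 34.0%.

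Across the 461 features, limma called 162 at an adjusted p under 0.05, which is 35.1%. Of these, 76 (16.5%) were higher and 86 (18.7%) lower in E14 2. Among 90 tested miRNAs, 28 rose and 4 fell, with a median log2 difference of 0.59, beside a median of -0.14 over all 461 features. Among 136 tested snoRNAs, 8 rose and 40 fell, with a median of -0.78. All 6 called snRNAs of 11 tested fell, with a median of -1.89, and 3 of 5 tested ribosomal RNA features fell. In protein-coding features, 30 of 176 rose and 30 fell. Of the 60 called protein-coding features, 36 contain a shorter tested feature, and reads inside it are counted for both. With A and B of each culture summed, which leaves 3 samples, limma called 0 features (188 at an unadjusted p under 0.05).

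How many features were higher depended on the scaling. The higher features were 46.9% of the calls in the fit reported here. It set the library scale from the tested features by TMM, a mean of log ratios to a common library with the extremes trimmed off. They were 11.8% with libraries scaled by their reads alone, 76.2% with TMM over snoRNAs and snRNAs, and 5.41% with TMM over all features with reads. The median of all features moved from -1.15 to 0.44 across the 7 scalings. The miRNA median moved from -0.50 to 1.26 and turned negative under 3 of them, while the snoRNA and snRNA medians were below 0 under all 7. Each change below is therefore relative to the scaling. Called in the same direction under all 7 scalings were 7 features higher (1.52%) and 40 lower (8.68%) in E14 2.

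**Figure D2:**
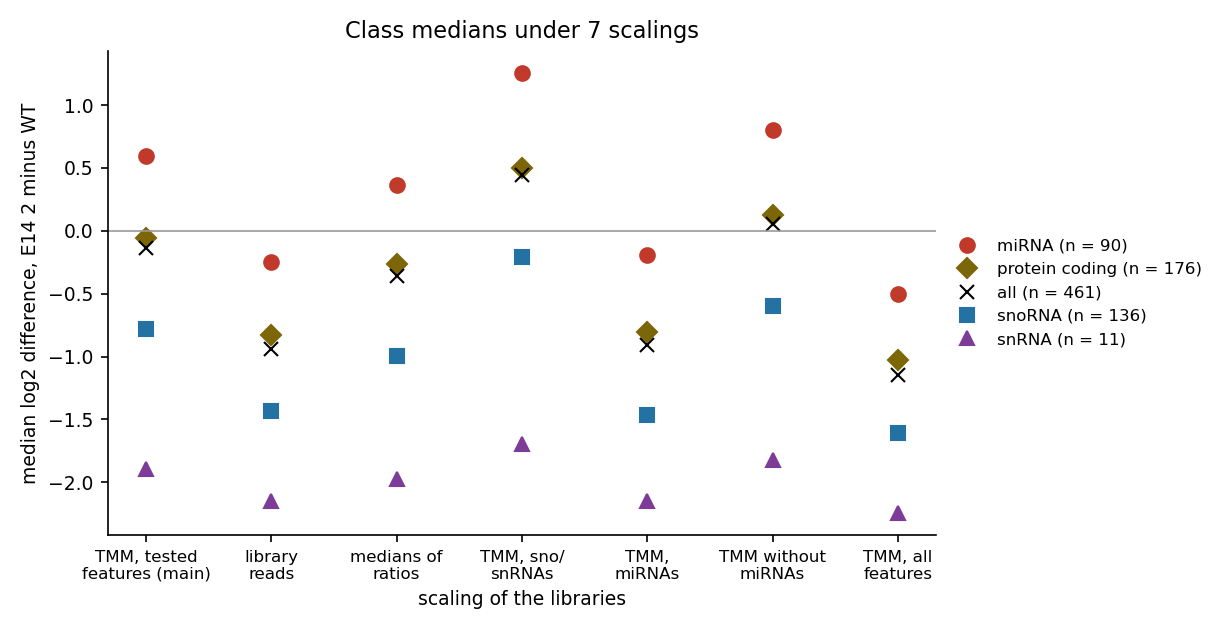
Median log2 difference (E14 2 minus WT) of each class under 7 scalings of the libraries, with the number of tested features in the legend. The whole set of medians shifts with the scaling, from -1.15 to 0.44 for all features, while miRNAs stay above snoRNAs and snRNAs.

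The calls were set against the distance between the 2 other wild-type cultures. In a fit with each culture as a group, E14 2 differed from WT culture 1 in 50 of 461 features (10.8%) and from WT culture 3 in 42 (9.11%). WT cultures 1 and 3 differed from each other in 0 features by limma (0%), with 1 at an unadjusted p under 0.05, and voom weights also gave 0 (10 unadjusted). The median absolute log2 difference was 0.90 and 1.00 in the first 2 comparisons and 0.27 between WT cultures 1 and 3. E14 2 also differed more within itself. The median absolute log2 difference of A and B was 0.80 in E14 2, 0.41 in WT culture 1 and 0.38 in WT culture 3.

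The largest rise was that of Mir183, which lies in a cluster with Mir182 and Mir96 on the minus strand of chromosome 6 (NCBIM37), whose miRNAs are best known from sensory cells. Mir183 (chr6:30119668-30119737) stood at 32586 RPM in E14 2A and 8081 RPM in E14 2B, against 673, 1296, 1275 and 1376 RPM in WT 1A, 1B, 3A and 3B. Every E14 2 value was far above every WT value. It rose by 4.74 on the log2(RPM + 50) scale (SE 0.68, limma adjusted p = 0.00476). Without E14 2A the rise was 3.17 and remained called.

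Mir182 (chr6:30115918-30115992) was the most abundant miRNA of E14 2, at 412836 RPM in E14 2A and 181534 RPM in E14 2B. In WT it stood at 37572, 65802, 35323 and 57316 RPM, so the groups did not overlap. The rise was 3.48 on the log2 scale (SE 0.49, limma adjusted p = 0.00476), between 2.17 and 4.17 over the 7 scalings and 2.31 without E14 2A.

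Mir96 (chr6:30119446-30119551) lies between them and had few reads in every library. Its 124 and 271 RPM in E14 2 overlapped the 179 to 471 RPM of WT, and the difference of 0.42 was not called. Per 100 Mir182 reads there were 0.0300 and 0.149 Mir96 reads in E14 2 and 0.325 to 1.33 in WT. Mir183 went the other way, with 7.89 and 4.45 reads per 100 of Mir182 in E14 2 against 1.79 to 3.61 in WT. These ratios within a library need no scaling, and both sets of values were apart (exact two-sided permutation p = 0.133 each, the smallest 2 against 4 libraries allow).

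The cluster made up 64.1% of miRNA counts in E14 2A (95% Wilson interval 63.2 to 65.0) and 37.5% in E14 2B (37.2 to 37.9). In WT it made up 13.2%, 17.5%, 10.3% and 16.4%. The means differed by 36.5 points, with the permutation p again at its minimum of 0.133. Mir182 alone carried most of this, at 59.4% and 35.9% of miRNA counts. The abundance of this 1 cluster lowers the share of every other miRNA in the same library.

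Of the 7 features higher under all scalings, 5 are annotated as miRNAs. Besides Mir183 and Mir182 they are CT010508.1, Mir151 and Mir192. CT010508.1 (chr9:108470626-108470745, minus strand) had 41383 and 12253 RPM in E14 2 and 2382, 2275, 2092 and 2272 RPM in WT. The difference was 4.24 (SE 0.62, limma adjusted p = 0.00476), or 2.79 without E14 2A, and stayed called. Read on the opposite strand, this interval holds both miR-191 sequences printed above. Counting did not separate strands, since Clasp1 on the plus strand carried at least the reads of U4atac, which lies inside it on the minus strand, in each of the 6 libraries. Reads of Mir191 and of a transcript on the minus strand can therefore not be told apart.

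Mir151 (chr15:73085245-73085312) lies in Ptk2, the gene of focal adhesion kinase, and the 2 features share nearly all their reads. It stood at 11089 and 5406 RPM in E14 2 and at 1293, 1338, 1455 and 1404 RPM in WT. The 4 WT values lie close together and far below both E14 2 values. The rise was 3.39 (SE 0.48, limma adjusted p = 0.00476), and Ptk2 rose by the same amount.

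Mir192 (chr19:6264844-6264932) is known from liver and gut. It had 1487 and 1305 RPM in E14 2 and 224, 221, 180 and 208 RPM in WT. Here the 2 E14 2 libraries were close to each other in RPM as well. The rise was 3.35 (SE 0.36, limma adjusted p = 0.00404) and stayed called without E14 2A, at 2.74. The seventh feature is 4930557F10Rik, an annotated processed transcript on chromosome 13, with 1115 and 1676 RPM in E14 2 and 125 to 338 RPM in WT (log2 difference 3.29, SE 0.40, limma adjusted p = 0.00404).

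**Figure D3:**
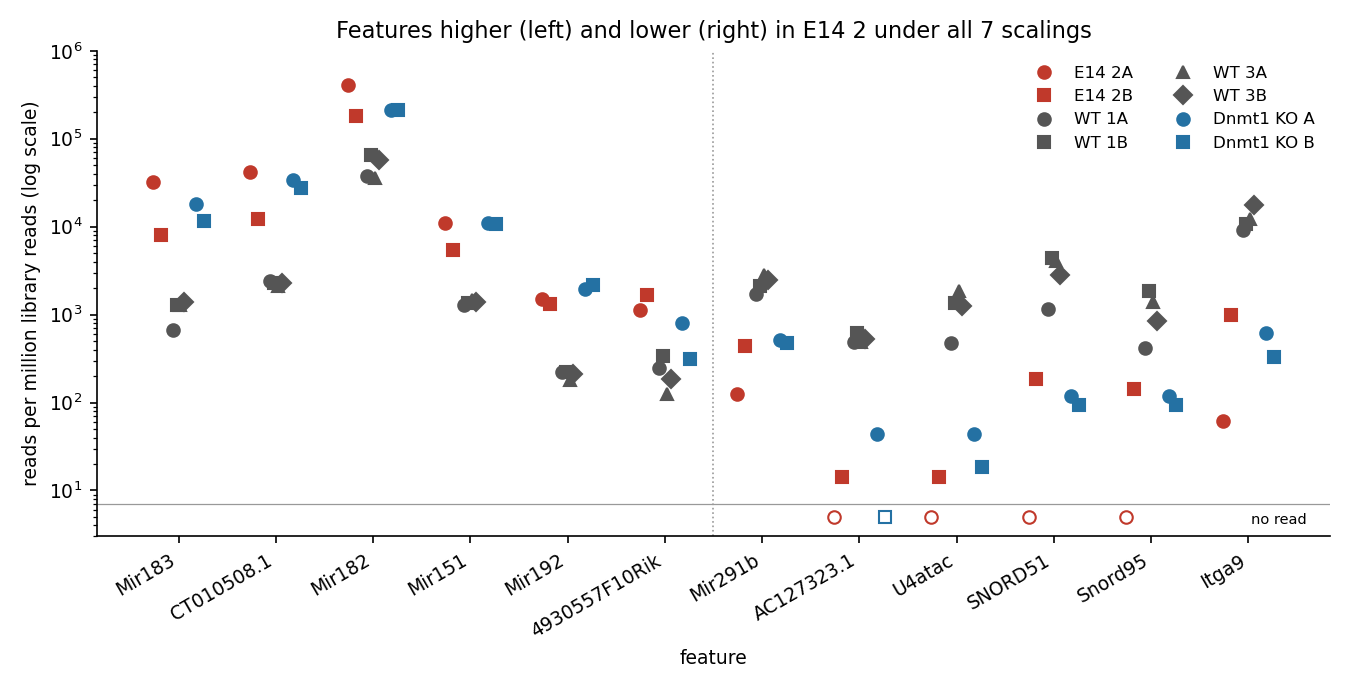
RPM (log axis) of 6 features higher and 6 features lower in E14 2 under all 7 scalings, with 1 point per library for E14 2 (red), WT (grey) and Dnmt1 KO (blue). Open symbols at the bottom mark libraries with no read. Mir182 lies at 412836 and 181534 RPM in E14 2 and between 35323 and 65802 RPM in WT.

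Other rises held under some scalings only. Rab27a, which encodes a GTPase of vesicle transport, had 4089 and 3809 RPM in E14 2 and 812 to 1244 RPM in WT (log2 difference 2.75, SE 0.34, limma adjusted p = 0.00404). It lost the call with TMM over all features. Mir186, chosen after its values were seen, had 1177 and 1526 RPM against 236 to 466 RPM (2.68, SE 0.35, limma adjusted p = 0.00404), and it too lost the call under that scaling.

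Mir10b, a miRNA of the Hoxd cluster, had 4275 RPM in E14 2A and 1084 RPM in E14 2B against 420 to 1039 RPM in WT. E14 2B lay just above the highest WT value. The rise of 2.59 (limma adjusted p = 0.0288) became 1.06 without E14 2A and was then not called, and the call was also lost without any 1 of the 4 WT libraries. Mir92b had 9231 and 5200 RPM against 1737 to 3118 RPM (2.41, SE 0.45, limma adjusted p = 0.00981), and the rise was 1.43 without E14 2A. Mir148a had 5823 and 7717 RPM against 2867 to 4241 RPM (1.95, SE 0.30, limma adjusted p = 0.00615), and its relative Mir148b rose as well, by 1.38, a call that was lost without E14 2A or without WT 1B. Mir27b had 3098 and 3937 RPM against 1178 to 1933 RPM (2.198, SE 0.39, limma adjusted p = 0.00868).

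In the Mir290 to Mir295 cluster on chromosome 7, 1 of 7 tested members rose, 2 fell and 4 were not called, with a median log2 difference of 0.27. This share of calls is near the 35.1% over all features. Mir291a (chr7:3218920-3219001) had 3098 and 5471 RPM in E14 2 and 2370, 2379, 2342 and 3287 RPM in WT. The values overlapped in RPM, and the rise of 1.61 (SE 0.30, limma adjusted p = 0.00953) lost its call under 3 of the other 6 scalings, with 0.32 as the lowest value. Mir291b (chr7:3219483-3219561), named after its values were seen, had 124 and 442 RPM in E14 2 and 1713, 2131, 2799 and 2453 RPM in WT. It fell by 2.15 on the log2 scale (SE 0.38, limma adjusted p = 0.00868), with a call under all 7 scalings. Mir295 (chr7:3220774-3220842) had 5266 and 13516 RPM in E14 2 and 26050, 30015, 40422 and 40717 RPM in WT. Its fall of 1.04 (SE 0.30, limma adjusted p = 0.0306) was not called without E14 2A (limma adjusted p = 0.0927), without WT 1B, 3A or 3B, or under 2 of the other scalings.

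Within the cluster, the proportions differed without any scaling. Per 100 Mir291a reads there were 4.0 Mir291b reads in E14 2A and 8.08 in E14 2B, against 72.3, 89.6, 120 and 74.6 in WT 1A, 1B, 3A and 3B. The counts of Mir291b behind this were 2 and 62 reads in E14 2 and 202 to 420 reads in WT. For Mir295 the ratios were 170 and 247 in E14 2 against 1099 to 1726 in WT, and for Mir294 they were 42.0 and 32.9 against 78.9 to 183. Mir292 and Mir293 also lay below all WT ratios. All 5 ratios share the Mir291a count and reached the smallest permutation p of 0.133 (adjusted p = 0.156 over 14 ratios). Mir291a was the only tested member called higher, and it had only 50 reads in E14 2A. A low ratio to Mir291a therefore does not show by itself that the other member fell, and the shared direction depends on this choice of denominator. The 5p arms of Mir291a and Mir291b are close in sequence, as printed above, and how reads that map to both were placed is not given in the sources used here.

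**Figure D4:**
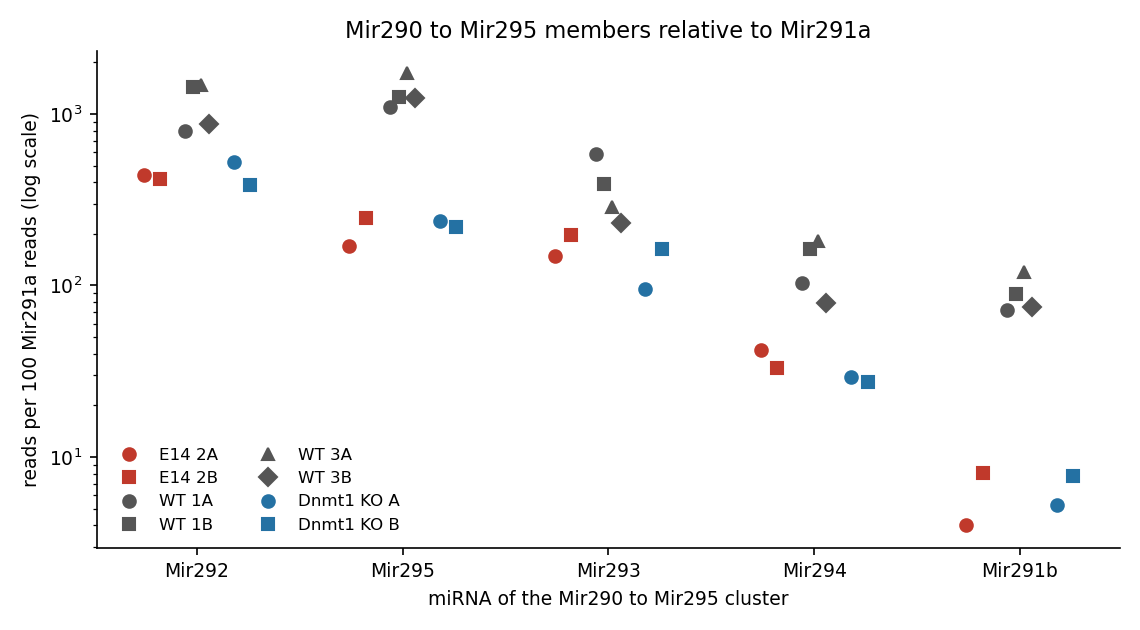
Reads of 5 members of the Mir290 to Mir295 cluster per 100 Mir291a reads (log axis), with 1 point per library for E14 2 (red), WT (grey) and Dnmt1 KO (blue). For Mir291b, E14 2 lies at 4.0 and 8.08 and WT between 72.3 and 120.

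Calls in the other miRNA families are read beside the 16.5% of all features that rose and the median of -0.14 over them. They are also read beside the miRNA class itself, in which 28 of 90 tested features rose, with a median of 0.59. In the Mir17-92 cluster, 1 of 5 tested members rose (Mir17, by 1.39, not called without E14 2A or without WT 1B) and none fell. In the related Mir106a-363 cluster on the X chromosome 1 of 4 rose (Mir92-2, by 0.93, which turned negative under 2 scalings and lost its call in 5 of 6 fits without 1 library). In the group of the Mir106b-25 cluster and Mir92b, 3 of 4 rose (Mir92b above, Mir25 and Mir93), with a median of 1.40. Mir25 rose by 1.41 and was not called without E14 2A (limma adjusted p = 0.0563). Mir93 rose by 1.39 and lost its call in 14 of the 23 other settings tried, among them the fits without E14 2A (limma adjusted p = 0.0627) and without E14 2B (limma adjusted p = 0.0903). The seed printed for miR-92a-3p is held by 5 tested features (Mir25, Mir363, Mir92-1, Mir92-2 and Mir92b), of which 3 rose. Of 7 listed members of the Mir29, Mir148 and Mir152 families only Mir148a and Mir148b were tested. Both rose, as given above, with a median of 1.67. In the Mir23-27-24 clusters 1 of 2 rose, as did 1 of 2 among the Hox cluster miRNAs. None of 3 tested members each of the Mir302-367 cluster and the Mir200 family was called, and 1 of 3 tested Mir30 members rose. Of miRNA counts, the Mir17-92 cluster took 9.03% and 19.97% in E14 2 against 23.2% to 31.5% in WT. The Mir290 to Mir295 cluster took 4.05% and 10.9% against 21.3% to 25.4%. Both shares lay below all 4 WT values (exact permutation p = 0.133 each), beside the larger share of the Mir182 and Mir183 cluster given above.

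Matched mature sequences did not set the called miRNAs apart by base composition. Of 87 tested miRNA features searched, 76 held a RefSeq mature sequence on their own strand. The median GC content of the mature arms was 45.5% in 23 miRNAs that rose, 45.5% in 3 that fell and 47.7% in 50 that were not called, given as a description.

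Fragments of snoRNAs were lower in E14 2, and those of the C/D type, which guide 2′-O-methylation, supplied most of the reads. Features named as C/D snoRNAs (Snord) took 5.61% and 6.65% of table counts in E14 2 and 13.96% to 18.3% in WT. Features named as H/ACA snoRNAs (Snora), which guide pseudouridylation, took 0.182% and 0.514% against 0.6003% to 0.763%. Over all 461 features, 205 (44.5%) had both E14 2 values below all 4 WT values in RPM and 37 (8.03%) had both above. Among 136 snoRNAs, 88 lay below and 4 above. Of the 40 features lower under all scalings, 16 were snoRNAs.

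Snord12 (chr2:166890776-166890865) had 248 RPM in E14 2A and 685 RPM in E14 2B, against 4454, 19128, 15936 and 10228 RPM in WT. The WT values spread widely, and all were above E14 2. It fell by 3.67 (SE 0.53, limma adjusted p = 0.00476). SNORD51 (chr1:63225254-63225326) lies in Eef1b2, which encodes a translation elongation factor. It had no read in E14 2A and 185 RPM in E14 2B, against 1150, 4420, 4116 and 2793 RPM in WT, and fell by 4.28 (SE 0.73, limma adjusted p = 0.00811). Snord95 (chr11:48616641-48616708) had no read in E14 2A and 143 RPM in E14 2B, against 412 to 1876 RPM in WT. It fell by 2.99 (SE 0.70, limma adjusted p = 0.0195). Without E14 2A the difference was -2.13 and was not called (limma adjusted p = 0.0523), and the call was also lost without WT 3A.

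A few snoRNA features went up. SNORD20 (chr1:88248583-88248662), inside the nucleolin gene Ncl, had 22116 RPM in E14 2A but only 2660 RPM in E14 2B, against 998 to 2668 RPM in WT. E14 2B thus lay within the WT range. The fitted rise of 3.36 (limma adjusted p = 0.0301) became 1.27 without E14 2A and was not called (adjusted p = 0.147), and it lost its call without any 1 of the 4 WT libraries.

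Among snRNAs, U4atac fell most. It belongs to the minor spliceosome, which removes a rare class of introns. U4atac (chr1:120355718-120355842) had 0 and 2 reads in E14 2, which is 0 and 14.3 RPM, and 481, 1351, 1843 and 1244 RPM in WT. The log2 difference was -4.02 (SE 0.46, limma adjusted p = 0.00404), and -4.03 without E14 2A. The other 5 called snRNAs are copies of U5, a core RNA of both spliceosomes. A U5 copy on chromosome 4 (chr4:116862547-116862662) had 0 and 92.7 RPM against 746 to 1621 RPM and fell by 3.27 (SE 0.53, limma adjusted p = 0.00643). U5 has near-identical copies, so the reads of a single copy are uncertain.

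The largest fall of all was in Itga9, which encodes an integrin subunit. Its feature (chr9:118515808-118810121) spans the whole gene, and the file does not say where in it the fragments lie. It had 62.0 RPM in E14 2A and 991 RPM in E14 2B, against 9063, 10702, 12292 and 17781 RPM in WT. It fell by 4.39 (SE 0.71, limma adjusted p = 0.00643), and by 3.18 without E14 2A. Another feature lower under all scalings was AC127323.1, annotated as a miRNA, with 0 and 14.3 RPM in E14 2 and 485 to 621 RPM in WT.

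Fragments of mitochondrial RNA set the 2 E14 2 libraries apart from each other. Features of the mitochondrial genome took 2.49% of counts in E14 2A and 12.8% in E14 2B, against 1.49%, 1.52%, 4.45% and 2.65% in WT. The small ribosomal RNA mt-Rnr1 had 9726 RPM in E14 2A and 70290 RPM in E14 2B, against 2802, 3813, 21077 and 8783 RPM in WT. E14 2A lay within the WT range. The fitted rise of 2.91 (limma adjusted p = 0.0328) was not called without E14 2B, without WT 1B or 3B, or under 3 of the other 6 scalings. All 9 called mitochondrial features of 18 tested were higher, beside 16.5% of all features. None of the 2 ribosomal and 9 transfer RNAs among the 18 was called higher under all 7 scalings, and the median of the transfer RNAs, 0.33, turned to -0.45, -0.41 and -0.66 under 3 of them.

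The labelled cell type was checked against marker miRNAs. The Mir290 to Mir295 cluster was abundant, at 28125 and 55355 summed RPM in E14 2 and 65412 to 91543 RPM in WT. The Mir302-367 cluster had 558 and 2218 RPM in E14 2 and 1531 to 2504 RPM in WT. Of 5 muscle markers in the table, all were at 0 reads in the 6 libraries. Of 8 neural entries 4 had any read, with a sum of 62.0 and 143 RPM in E14 2 and 106 to 188 RPM in WT, and the Mir124a and Mir9 entries were at 0. Of 7 blood entries 5 had reads, with 929 and 792 RPM against 734 to 862 RPM, and Mir223 and Mir144 at 0. Of 8 fibroblast entries 6 had reads, with 6938 and 13880 RPM against 8818 to 11743 RPM. Nearly all of these came from Mir21, Mir22 and Mir143, while Mir199a-1 and Mir199a-2 were at 0. Of 5 hepatic and endoderm entries 3 had reads, with 1487 and 1319 RPM in E14 2 and 180 to 241 RPM in WT. Mir192 supplied 24 of 24 and 183 of 185 of these reads in E14 2, and the liver miRNA Mir122a was at 0 in all 6.

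For many of the features above, the levels of E14 2 lay near those of the Dnmt1 KO culture. Mir182 had 210704 and 213871 RPM in Dnmt1 KO A and B, Mir183 18012 and 11709 RPM, Mir151 10949 and 10817 RPM, and Mir192 1965 and 2165 RPM. Itga9 had 621 and 325 RPM there, and U4atac 44.3 and 18.6 RPM. There were 5.23 and 7.79 Mir291b reads per 100 Mir291a reads. miRNAs took 53.4% and 51.4% of counts in Dnmt1 KO, and snoRNAs 8.30% and 7.67%. The Mir182 and Mir183 cluster made up 35.0% and 36.02% of its miRNA counts. In each of these values, Dnmt1 KO lay outside the WT range and on the same side as E14 2. Other groups above did not match. Fibroblast entries summed to 37279 and 46066 RPM in Dnmt1 KO A and B, against 6938 and 13880 RPM in E14 2. The Mir290 to Mir295 cluster had 99190 and 55619 RPM in Dnmt1 KO A and B. Dnmt1 KO A thus lay above all WT values, whereas both E14 2 values, 28125 and 55355 RPM, lay below them.

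At 3 imprinted or X-linked miRNA clusters, both E14 2 libraries lay apart from Dnmt1 KO, though not all values lay within the WT range. They were below Dnmt1 KO in the Dlk1-Dio3 and germline clusters and above it in the Mir106a-363 cluster. The Dlk1-Dio3 region on chromosome 12 (chr12:110691033-111519307) is imprinted, and its miRNAs are read from the maternal copy. Its 57 annotated miRNAs together had 3 reads in E14 2A and 22 in E14 2B, 3 to 15 reads in the WT libraries, and 3619 and 5549 reads in Dnmt1 KO A and B. In RPM this was 186 and 157 in E14 2, 27.8 to 62.1 in WT, and 53474 and 51567 in Dnmt1 KO. Both E14 2 values thus lay above all WT values, and that of E14 2A was at the limit a count of 0 allows. Mir127 had 124 and 57.1 RPM in E14 2, 8.16, 6.90, 0 and 6.95 RPM in WT, and 32729 and 27591 RPM in Dnmt1 KO. The 18 miRNAs of a germline cluster on the X chromosome had 1 and 1 read in E14 2, 0 to 6 reads in WT, and 97 and 161 reads in Dnmt1 KO, which is 62.0 and 7.13 RPM, 0 to 24.5 RPM, and 1433 and 1496 RPM. The Mir106a-363 cluster had 33515 and 43629 RPM in E14 2, within the 26698 to 49798 RPM of WT, and 5999 and 7639 RPM in Dnmt1 KO. Of miRNA counts it took 4.82% and 8.62% in E14 2, 9.21% to 13.0% in WT, and 0.917% and 1.22% in Dnmt1 KO. E14 2 lay below all WT values in this share only, which the abundance of the Mir182 and Mir183 cluster lowers.

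E14 2 and Dnmt1 KO were then compared directly, with the 4 cultures as groups and the filter taken over their 8 libraries. Of 465 features, 26 differed (5.59%), 21 of them lower in E14 2. Of the 26, 15 lie in the Dlk1-Dio3 region, 12 of these miRNAs, and all 15 were lower in E14 2. These 15 passed the filter only through their reads in Dnmt1 KO. Their shared direction therefore follows from the filter and is not a separate result. The 6 other features lower in E14 2 were Mir141, Mir22, 2210403K04Rik, Tlcd2 and the X-linked Mir871 and Mir470. 2210403K04Rik and Tlcd2 had nearly the same RPM as Mir22 in every library, so these calls are not separate. Mir141, Mir871 and Mir470 passed the filter only through Dnmt1 KO as well. The 5 that were higher in E14 2 were Mir302a, Mir92-2, Mir20b, Mir18b and mt-Tv. With libraries scaled by their reads alone, 26 were again called, of which 15 lie in that region, 10 others were lower and only Mir92-2 was higher. Mir92-2 had 33081 and 42431 RPM in E14 2 and 5792 and 7379 RPM in Dnmt1 KO, a log2 difference of 3.10 (SE 0.36, limma adjusted p = 0.00122). In the same fit, E14 2 differed from WT culture 1 in 99 features (21.3%) and from WT culture 3 in 111 (23.9%). WT cultures 1 and 3 differed in 0 (0%, 3 at an unadjusted p under 0.05). These comparisons share the E14 2 libraries, and a feature that was not called may still differ.

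**Figure D5:**
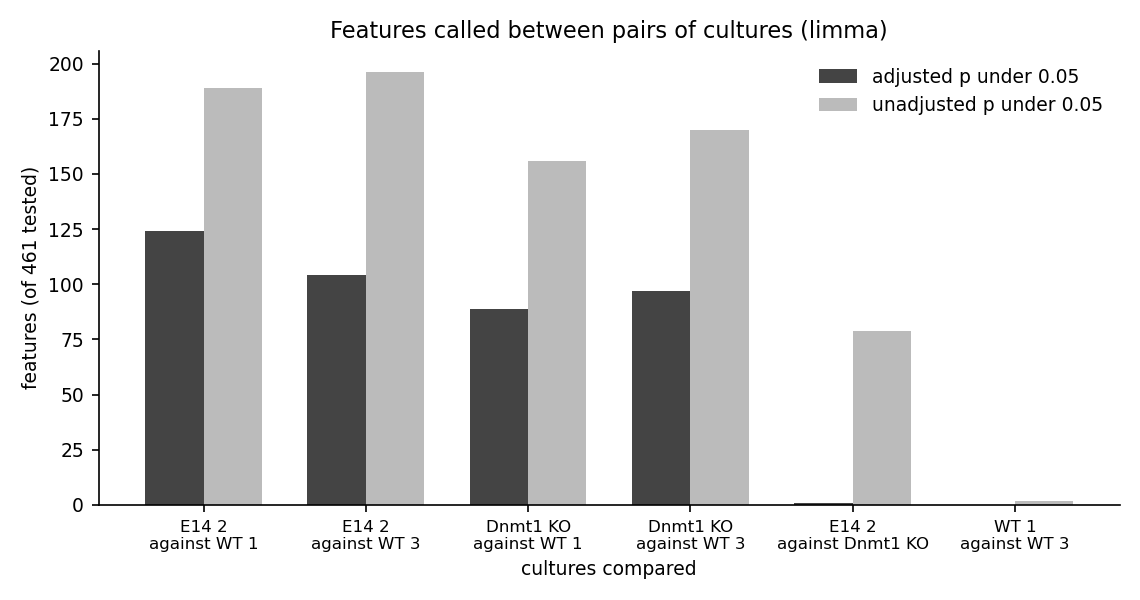
Number of the 461 features (filter over the 6 wild-type libraries) that limma called between pairs of cultures in a fit of 4 cultures, at an adjusted (dark) or unadjusted (light) p under 0.05. E14 2 differed from WT culture 1 in 124 features (26.9%), from WT culture 3 in 104 (22.6%) and from Dnmt1 KO in 1 (0.217%). Dnmt1 KO differed from WT cultures 1 and 3 in 89 (19.3%) and 97 (21%). The filter over the 6 wild-type libraries leaves out features with reads mainly in Dnmt1 KO. With the filter over 8 libraries, E14 2 differed from Dnmt1 KO in 26 of 465 features (5.59%).

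Rank correlations of RPM over the 461 features are given as a description with no test. Spearman's rho was 0.80 between E14 2A and 2B, 0.83 to 0.93 among the 4 WT libraries and 0.50 to 0.76 between E14 2 and WT. It was 0.87 and 0.90 between E14 2B and the 2 Dnmt1 KO libraries, and 0.75 and 0.77 for E14 2A. Each E14 2 library, taken alone, had higher values with Dnmt1 KO than with WT. Across the 2 E14 2 libraries the ranges with Dnmt1 KO and with WT overlapped, and E14 2B was closer to Dnmt1 KO than to E14 2A. The features share each library's depth, and E14 2A is the shallowest of the 6 wild-type libraries. The filter that set the 461 features did not use the Dnmt1 KO libraries, so features with reads mainly there are left out.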

How the data were processed

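Reads of 20 to 24 nt were mapped by the authors to mouse build NCBIM37 and counted per annotated feature in SeqMonk. The submitters' processing notes name Trim Galore 0.3.5 and Bowtie2 2.2.6. The deposited values are log2 RPM with 0 written as 0.9 read, and whole reads came back for 100.0% of values (within 0.05 read). The 89 value columns of no sample here were not used. Feature classes came from GENCODE vM1 (NCBIM37), which matched all 32101 features. Depth ranged from 16142 to 245184 reads in the wild-type libraries.

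Features were tested in limma 3.58.1 (R 4.3.3) as log2(RPM + 50) after TMM over the 461 tested features, which understates changes of low features, with Benjamini-Hochberg adjustment at 0.05. The planned correlation of A and B came out negative (-0.60), so it was set to 0. Letters A and B did not pair libraries (r of A minus B between cultures -0.44 to 0.04). Shares and ratios were tested by exact permutation. Named features were the 12 largest called rises and falls, the 4 most abundant tested members of each of 27 lists and the 10 miRNAs with most reads. The text describes those the results turn on. The fit was tested on simulated data. Members and lists were chosen with earlier results of these data known.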

Additional observations from a re-analysis of the deposited data

Results flagged for a closer look

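Of 111 values checked in the 4 WT libraries for 1 library far from the other 3, 7 were picked out, and chance alone picks about 1 in 20. Mir183 had 673 RPM in WT 1A against 1275 to 1376 RPM in the others, and Mir291a had 3287 RPM in WT 3B against 2342 to 2379 RPM. SNORD20 had 2668 RPM in WT 3B against 998 to 1264 RPM, Mir96 had 471 RPM in WT 3A against 179 to 214 RPM, and Mir93 had 651 RPM in WT 3A against 1122 to 1152 RPM. Mir669c had 102 RPM in WT 1A against 186 to 195 RPM. The let-7 family with Mir98 took 0.0211% of miRNA counts in WT 1A against 0.0154% to 0.0161%. The outlying WT values of SNORD20 and Mir291a each lay above that of 1 E14 2 library, and that of Mir96 above both.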

How the results depend on the processing

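The count of 162 called features stayed within 1.5 times under all other scalings, both other pseudocounts, the 500 RPM filter, voom, both fits of all 12 libraries and the replicate block (152). It became 641 with no filter, 41 with array quality weights, 286 with the estimated correlation of A and B and 0 with A and B summed, where 1 residual degree of freedom is left; the cause was not tested for the others. Without single libraries it ranged from 65 to 232, at 82 without E14 2A, 65 without WT 1B, 73 without WT 3A and 76 without WT 3B. TMM over all features, the fit of 12 independent libraries and the comparison with Dnmt1 KO were chosen after seeing the data. E14 2 against WT culture 1 gave 94 calls with library reads only, 23 with a pseudocount of 10 RPM and 124 with Dnmt1 KO added; against WT culture 3 it gave 122 with library reads only and 104 with Dnmt1 KO added. Against Dnmt1 KO it gave 26 with library reads only (1 higher, where the reported fit had 5) and 1 with the filter over the 6 wild-type libraries, where Mir302a, Mir20b, Mir18b and Mir22 were tested but not called. The miRNA share difference was 16.1 points with A and B summed and 14.2 to 34.7 without single libraries. The snoRNA share difference was -13.4 points over library reads, -24.3 over annotated small RNA classes and -18.9 without features that contain a shorter one, and -12.2 to -10.5 without single libraries. The share of the Mir182 and Mir183 cluster differed by 26.4 points with A and B summed, 6.62 without Mir182 (chosen after seeing the data) and 23.2 to 49.8 without single libraries. The replicate block by letter left the 3 share differences at 24.4, -11.4 and 36.5 points. Of the named features, Mir30e turned to -0.12 with TMM over all features, Mir92-2 to -0.022 with library reads only and -0.39 with TMM over all features, and Mir150, not called at -0.19, to 1.17 without E14 2B and -1.75 without E14 2A. In E14 2A, a count of 0 allows up to 186 RPM, and features seen under that level rest on very few reads.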
